A study of Homo sapiens with 18 samples.

Results

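ANGPTL4 and 9 genes of lipid droplets and fatty acid use were followed through knockdown of USP13 and of ZHX2 in 786-O cells. The 10 genes were chosen by name (ANGPTL4, PLIN2, PLIN3, NCEH1, HILPDA, CPT1A, PNPLA2, DGAT1, DGAT2 and LPIN1), with results of these libraries already known. They are 10 of the 27086 genes to which the deposited transcript counts were summed, and all 10 passed the filter on low counts. Because the choice was made from the contrasts of each hairpin with its control, the members' values in those contrasts, and the differences between the contrasts, are given as a description.

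786-O, an established line of clear-cell renal carcinoma, has no functional VHL, and HIF-2 is its active hypoxia-inducible factor. The 18 RNA libraries form 6 groups of 3. The USP13 experiment holds a control hairpin (shCtrl) and the hairpins sh50 and sh52 against USP13, a deubiquitinating enzyme. The ZHX2 experiment holds its own shCtrl libraries and the hairpins sh43 and sh45 against ZHX2, a zinc-finger and homeobox transcription factor. The labels give no further allele, drug or time, and they do not say whether the hairpins in these libraries were constitutive or doxycycline-induced. All cells are of 1 line. The labels do not say whether replicates came from separate cultures, so the p-values speak of the spread among these libraries alone, and that spread may be technical.

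Clear-cell renal carcinoma owes its name to cytoplasm filled with lipid and glycogen, and loss of VHL with active HIF is a known route to droplet storage in this tissue. Fatty acids that enter the cell are activated to acyl-CoA and either pass into mitochondria through CPT1A or are esterified to triacylglycerol by a chain of enzymes that includes lipin (LPIN1) and ends with DGAT1 or DGAT2. The product is stored in droplets coated by perilipins, from which ATGL (PNPLA2) releases fatty acids again. NCEH1 acts on another lipid, removing the acyl group from cholesteryl esters. ANGPTL4 acts outside the cell, where it inactivates lipoprotein lipase, and its gene is a textbook target of PPAR receptors and of hypoxia.

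The reagents and the promoters are shown first, because every contrast below rests on the hairpins. The promoters include those of ANGPTL4 and NCEH1. These were the members that passed in the same direction under all 4 hairpins (edgeR, adjusted p under 0.05). The share of all genes that did so was not taken, so this does not set them apart from other genes. Both USP13 hairpin targets, 21 bases long as the labels give them, matched USP13 transcripts and those of no other gene in GENCODE release 29. Target sequences of sh43 and sh45 were not at hand, so these hairpins were not matched to transcripts.

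sh50 target: cgcctgatgaaccaattgata
sh52 target: ccggtgaaatctgaactcatt

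Promoters were read from RefSeq (GRCh38.p14) for 7 of the 10 members and for no other member, as the 250 bases before the annotated start. Shown 5′ to 3′ on the strand of the gene are those of ANGPTL4 (chr19:8363905-8364154, plus strand), of PLIN2 (chr9:19127493-19127742, minus strand), the gene with the highest level per length, and of NCEH1 (chr3:172711068-172711317, minus strand). Capitals mark ACGTG or GCGTG, the core of a hypoxia response element, on either strand (CACGT and CACGC when read on the opposite strand).

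ANGPTL4 promoter: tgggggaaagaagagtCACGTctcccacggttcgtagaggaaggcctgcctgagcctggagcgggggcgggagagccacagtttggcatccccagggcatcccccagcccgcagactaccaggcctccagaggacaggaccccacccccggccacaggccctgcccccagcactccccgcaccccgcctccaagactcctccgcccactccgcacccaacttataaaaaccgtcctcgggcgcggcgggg
PLIN2 promoter: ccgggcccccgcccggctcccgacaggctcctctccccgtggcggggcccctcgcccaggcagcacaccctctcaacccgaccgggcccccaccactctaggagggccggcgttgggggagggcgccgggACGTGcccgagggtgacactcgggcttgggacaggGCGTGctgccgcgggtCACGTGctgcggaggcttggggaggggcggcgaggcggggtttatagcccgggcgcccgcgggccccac
NCEH1 promoter: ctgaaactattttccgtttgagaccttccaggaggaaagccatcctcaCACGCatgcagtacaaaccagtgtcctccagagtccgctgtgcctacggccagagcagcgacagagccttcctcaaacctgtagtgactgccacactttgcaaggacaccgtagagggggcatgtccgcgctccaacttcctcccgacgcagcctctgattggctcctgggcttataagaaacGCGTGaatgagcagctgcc

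The ANGPTL4 window held ACGTG once, on the opposite strand at position -234 from the start, and TATAAA at -29 on its own strand. PLIN2 held ACGTG at -120 and, within the palindrome CACGTG at -69, once on each strand, GCGTG at -85 and TATAAA on the opposite strand at -29. NCEH1 held GCGTG at -19 and, on the opposite strand, at -202. PLIN3 held GCGTG 3 times, 1 of the 3 LPIN1 promoters held it once, and the windows of CPT1A and PNPLA2 held neither core. Over 35116 promoters of that length, on either strand ACGTG was present in 18.5%, GCGTG in 32.2%, CACGTG in 6.34% and TATAAA in 10.7%. AGGTCA repeated after 1 base, the direct repeat bound by PPAR with RXR, was searched on both strands like the rest and was present in 0.0171% of promoters and in none of the members' windows. A match describes the letters and not a bound site.

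Total estimated counts per library lay between 11192561 and 16511290. USP13 mRNA measured 35.8, 33.6 and 30.8 CPM (counts scaled to a library total of 1000000 after trimmed-mean normalization) in its control, 16.3, 16.7 and 20.0 under sh50 and 14.5, 17.6 and 17.4 under sh52. For ZHX2 mRNA the control libraries of its experiment held 346, 351 and 350.2 CPM, with 40.1, 44.9 and 40.1 under sh43 and 93.3, 84.6 and 82.2 under sh45. In each experiment the target that the titles give fell, although hairpins 43 and 45 stand under USP13 in the protocol text. Library sh52 replicate 1 stood apart on the second principal component of its experiment (score 24.9, against 4.02 and 7.45 in the other sh52 libraries). Without it the members' log2 changes under sh52 moved by at most 0.10. The share of counts from mitochondrial rRNA moved with the groups, from 2.62 ± 0.0781% in the USP13 control to 4.25 ± 0.161% under sh50 and 3.69 ± 0.136% under sh52, and from 1.25 ± 0.0724% in the ZHX2 control to 1.54 ± 0.0310% under sh43 and 3.09 ± 0.260% under sh45 (SD, n = 3). Its part in the results was not tested. Of 10 renal carcinoma markers, 9 were matched and detected in every group, and their summed level moved with the groups. It lay between 5905 and 5956 CPM in the USP13 control, 4576 and 4608 under sh50 and 4886 and 5088 under sh52, and between 6011 and 6136 CPM in the ZHX2 control, 6301 and 6492 under sh43 and 6523 and 6596 under sh45. VIM, KRT8, KRT18 and MET fell and SLC16A3 rose under both USP13 hairpins (of all genes 4.16% and 3.26% did). PAX8, KRT18, MET, EPAS1 and SLC16A3 rose and PAX2 fell under both ZHX2 hairpins (of all genes 14.1% and 15.9% did). The part of these shifts in the results was not tested. The adipocyte markers ADIPOQ, LEP and LPL had 0 counts in all 18 libraries, which allows up to 0.268 CPM in the shallowest library (3 counts, counting error only). The summed level of the 8 adipocyte markers lay between 87.8 and 108 CPM in the USP13 experiment and between 80.6 and 136 CPM in the ZHX2 experiment, most of it ADIPOR2, a receptor that many cell types express. CD3E, CD163 and TYROBP had 0 counts in every group, as did EMCN among endothelial markers. The 12 leukocyte markers summed to 18.8 to 64.5 CPM, with the highest level under sh45, and CD68 was the main contributor. The 10 endothelial markers summed to 0.679 to 1.71 CPM outside sh43 and to 4.12 to 4.87 CPM under sh43, where ESAM rose. CSF1R rose and ADIPOR2 fell under both ZHX2 hairpins (of all genes 14.1% and 15.9% did), and ADIPOR2 fell under sh50. PLIN1 fell under sh43 and rose under sh45. CD68 fell under sh50 and sh43 and rose under sh52 and sh45. Over all libraries CSF1R, ESAM and PLIN1 averaged 0.701, 1.22 and 1.24 CPM. The part of these markers in the results was not tested.

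ANGPTL4 was the member with the largest change under every hairpin. In the USP13 experiment its level was 0.981, 0.850 and 0.694 CPM in the control libraries, which rests on only 13, 14 and 9 counts. Under sh50 it was 5.21, 5.51 and 4.16 CPM (60, 83 and 71 counts). Under sh52 it was 3.66, 3.22 and 3.35 CPM (53, 41 and 48 counts). Every knockdown library lay above every control library, and the sh50 libraries lay above those of sh52. ANGPTL4 rose 5.78-fold under sh50 (log2 change 2.53, SE 0.285) and 3.996-fold under sh52 (log2 change 1.998, SE 0.297). Here and below, rose and fell are used of changes with an adjusted p under 0.05 in edgeR's quasi-likelihood test over all genes of the experiment. In such bulk libraries, a change in the RNA per cell and a change in the number of cells that hold it cannot be told apart.

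In the ZHX2 experiment ANGPTL4 started higher and went much further. Control libraries held 12.4, 11.8 and 11.7 CPM. Levels under sh43 were 162, 147 and 185 CPM and under sh45 142, 137 and 132 CPM. No knockdown library came near the controls, and the sh43 range lay just above the sh45 range. ANGPTL4 rose 13.5-fold under sh43 (log2 change 3.76, SE 0.0852) and 11.4-fold under sh45 (log2 change 3.51, SE 0.0854). Ordered by mean level, the groups ran sh43, sh45, ZHX2 control, sh50, sh52 and USP13 control, and no neighbours in that order overlapped. The highest group mean was 196 times the lowest. Over 16 alternatives each (1 library left out, other scalings and filters, the replicate block, length offsets, DESeq2) the log2 change of ANGPTL4 stayed between 2.42 and 2.65 under sh50, between 1.89 and 2.11 under sh52, between 3.67 and 3.83 under sh43 and between 3.48 and 3.54 under sh45. The antisense gene RAB11B-AS1 overlaps ANGPTL4 in GENCODE 29, and reads of both cannot be told apart without strand. RAB11B-AS1 held 1.17 to 3.24 CPM in the USP13 experiment, more than ANGPTL4 in every USP13 control library and less than ANGPTL4 in the same sh50 and sh52 libraries, with log2 changes of -0.02 (SE 0.322) under sh50 and -0.50 (SE 0.338) under sh52 that did not pass. In the ZHX2 experiment it held 1.05 to 3.77 CPM, and fell under sh43 (-1.26; edgeR, adjusted p = 0.00076).

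**Figure D1:**
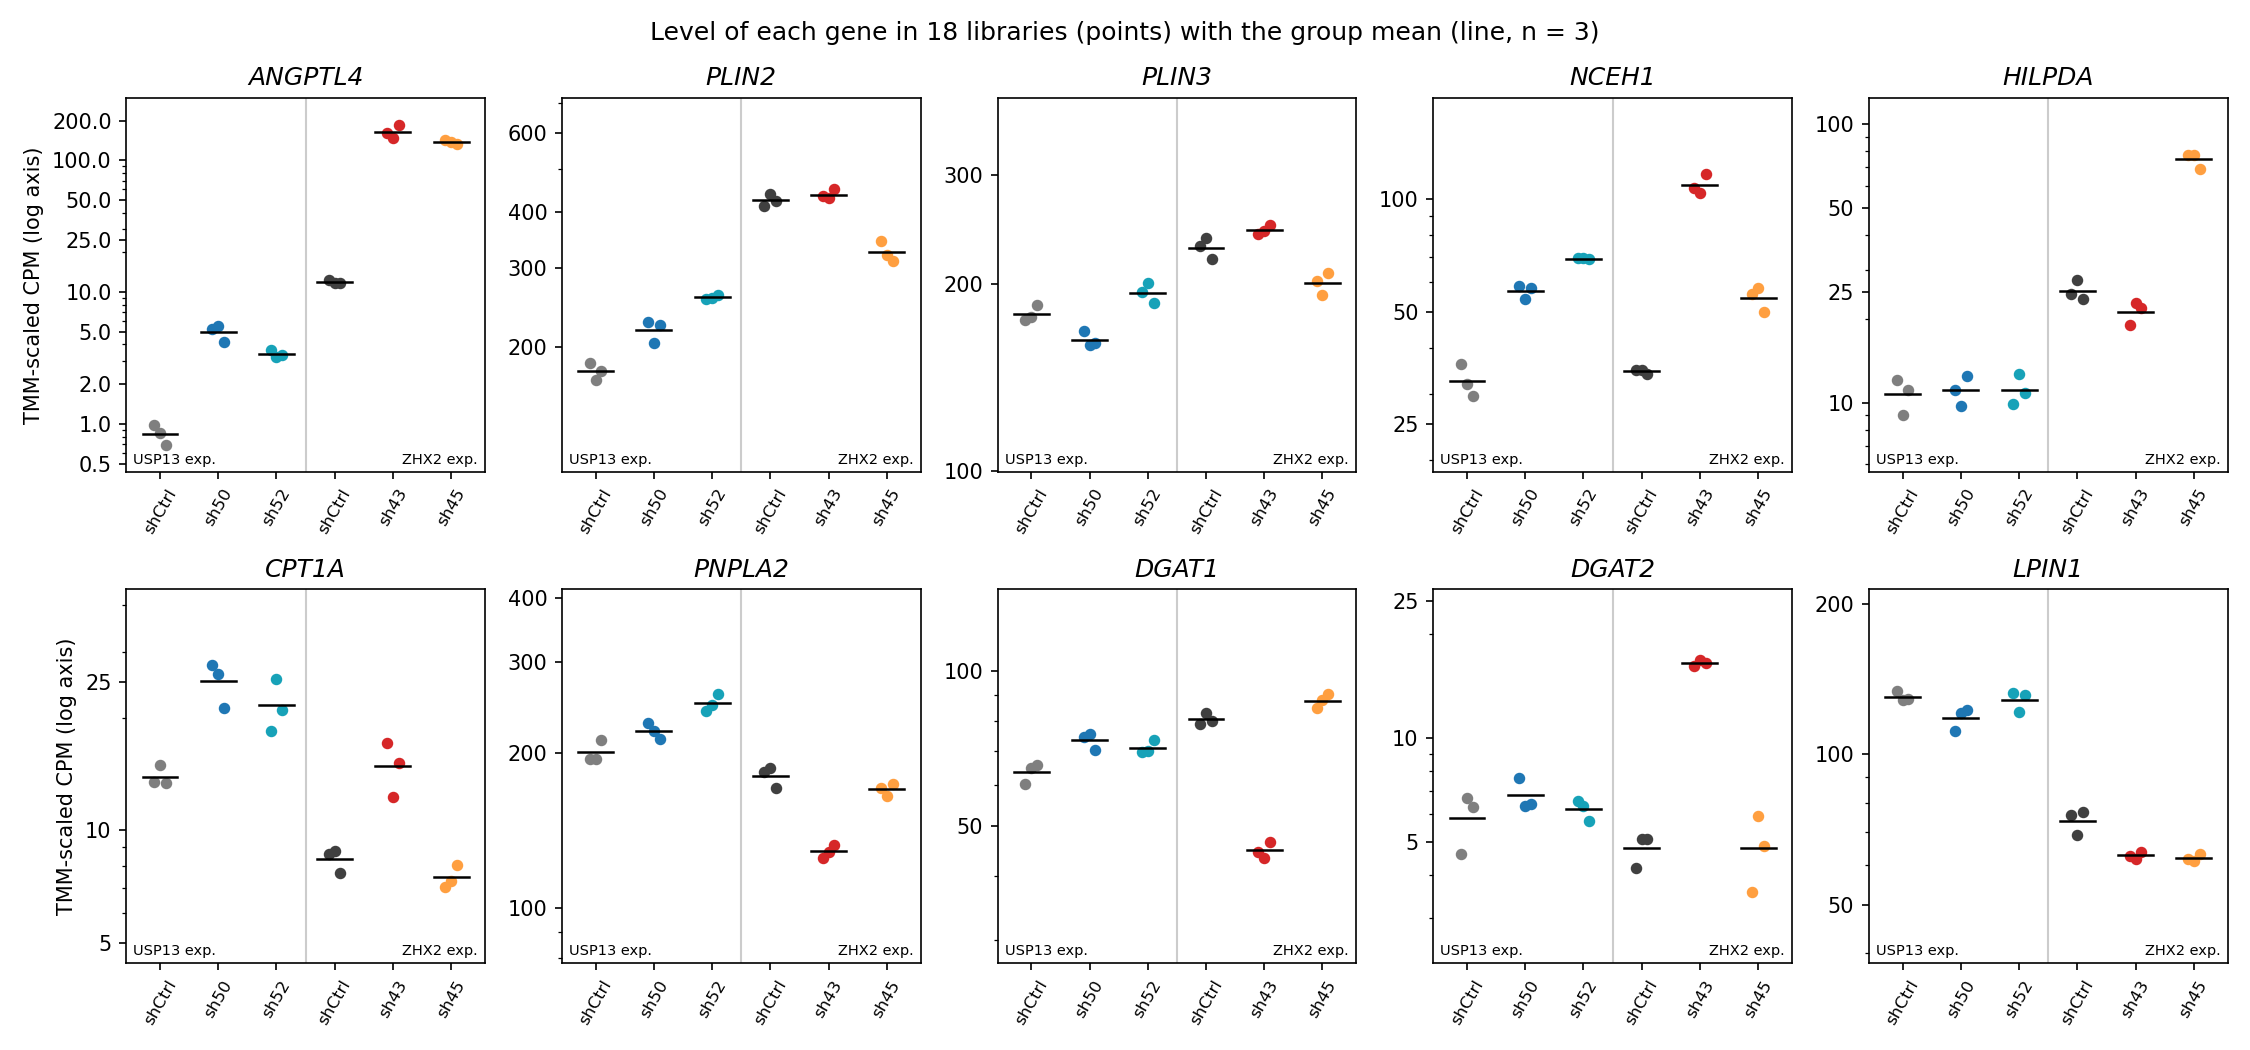
Level of each of the 10 genes (TMM-scaled CPM, log axis, own scale in each panel) in the 3 libraries of each group, with the group mean as a line; the USP13 experiment is left of the grey line and the ZHX2 experiment right of it. ANGPTL4 spans 0.694 to 185 CPM, whereas PLIN3 stays between 159.8 and 249 CPM.

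The coat genes moved less, and not together. PLIN2, the perilipin that covers droplets in most non-adipose cells, measured 184, 168 and 177 CPM in the USP13 control, 227, 204 and 224 under sh50 and 256, 258 and 262 under sh52. The ranges of these 3 groups did not overlap. PLIN2 rose by a log2 change of 0.30 (SE 0.0562) under sh50 and of 0.54 (SE 0.0560) under sh52. The ZHX2 hairpins gave another picture. Its level was 413, 440.0 and 424 CPM in that control, 434, 429.8 and 450.1 under sh43 and 345, 321 and 312 under sh45. Control and sh43 libraries overlapped (log2 change 0.01, SE 0.0449), and every sh45 library lay below both, where PLIN2 fell by 0.40 on the log2 scale (SE 0.0452). Across the experiments, PLIN2 was lowest in the USP13 control, and the ZHX2 control held 2.41 times that level.

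PLIN3, a perilipin that moves from the cytosol onto new droplets, varied least, its highest group mean being about 1.5 times its lowest. It measured 175, 177 and 185 CPM in the USP13 control, 168, 159.8 and 161 under sh50 and 194, 201 and 186 under sh52. All sh50 libraries were below and all sh52 libraries above the controls, but neither change passed (log2 changes -0.15, SE 0.0545, and 0.11, SE 0.0542). The lower level under sh50 did pass with DESeq2 (log2 change -0.15), without sh52 replicate 1 (-0.15) and in a fit of the sh50 and control libraries alone (-0.14). In the ZHX2 experiment the levels were 230.5, 237 and 219 CPM in the control, 241, 244 and 249 under sh43 and 202, 192 and 208 under sh45. PLIN3 fell by 0.21 (SE 0.0479) under sh45. Its log2 change of 0.07 (SE 0.0477) under sh43 passed only when ZHX2 control replicate 2 was left out (0.11).

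HILPDA, a small hypoxia-inducible droplet protein that inhibits ATGL, separated the hairpins of ZHX2. Its level was 24.6, 27.6 and 23.5 CPM in the ZHX2 control and 18.9, 22.8 and 21.8 under sh43. Under sh45 it was 77.5, 77.5 and 69.3 CPM. All sh45 libraries lay far above the others, and all sh43 libraries lay just below the controls. HILPDA rose 2.93-fold under sh45 (log2 change 1.55, SE 0.0813) and fell under sh43 by 0.28 on that scale (SE 0.0914). The sh43 call ended without sh43 replicate 1 (log2 change -0.20) or without ZHX2 control replicate 2 (-0.18). With USP13 knockdown the groups overlapped, at 12.1, 9.04 and 11.1 CPM in the control, 11.1, 9.69 and 12.4 under sh50 and 9.87, 12.6 and 10.8 under sh52 (log2 changes 0.05, SE 0.148, and 0.04, SE 0.149).

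Of the hydrolases, NCEH1 rose under all 4 hairpins. NCEH1 removes the acyl group from cholesteryl esters and from ether lipids in the endoplasmic reticulum. It measured 36.1, 32.0 and 29.8 CPM in the USP13 control, 58.4, 54.0 and 58.0 under sh50 and 69.6, 69.4 and 69.0 under sh52. It measured 34.9, 34.8 and 34.1 CPM in the ZHX2 control, 107, 104 and 117 under sh43 and 55.7, 57.7 and 49.8 under sh45. Every knockdown library was above its controls, and the controls of the experiments overlapped, as did those of DGAT2 but of no other member. The log2 change was 0.79 (SE 0.0787) under sh50, 1.08 (SE 0.0781) under sh52, 1.63 (SE 0.0689) under sh43 and 0.63 (SE 0.0716) under sh45.

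PNPLA2, which encodes ATGL and takes the first acyl chain off triacylglycerol, moved in opposite directions in the experiments. Its level was 195, 195 and 212 CPM in the USP13 control, 229, 221 and 213 under sh50 and 242, 248 and 260.1 under sh52. All knockdown libraries were above the controls, by a narrow margin under sh50. PNPLA2 rose under sh52 (log2 change 0.31, SE 0.0552), and the sh50 value of 0.13 (SE 0.0553) passed only without USP13 control replicate 3 (0.17). In the ZHX2 control it was 184, 187 and 171 CPM, with 125, 129 and 133 under sh43 and 171, 165 and 174 under sh45. The sh43 libraries lay below all others, and PNPLA2 fell there by 0.51 (SE 0.0519). The sh45 libraries overlapped the controls (log2 change -0.10, SE 0.0512), and the lower level passed only without ZHX2 control replicate 3 (-0.14).

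Among the 3 synthesis members the DGAT pair changed most under sh43. DGAT2, one of the enzymes of the last step to triacylglycerol, measured 4.20, 5.10 and 5.10 CPM in the ZHX2 control, 16.2, 16.9 and 16.5 under sh43 and 3.56, 5.93 and 4.87 under sh45. It rose 3.36-fold under sh43 (log2 change 1.75, SE 0.155), with all 3 libraries far above the rest, and under sh45 it overlapped the controls (log2 change -0.04, SE 0.182). Its USP13 groups all overlapped, from 4.60 to 7.65 CPM. DGAT1, the other enzyme of that step, went the opposite way under sh43. It measured 78.9, 83.1 and 80.0 CPM in the ZHX2 control, 44.6, 43.3 and 46.5 under sh43 and 84.8, 87.7 and 90.2 under sh45. DGAT1 fell by 0.88 (SE 0.0616) under sh43, and its log2 change under sh45 was 0.10 (SE 0.0583), with ranges apart but the test not passed. HSF1, which overlaps DGAT1 on the opposite strand and reached 272 CPM, had a log2 change of 0.29 (SE 0.0515) under sh43, and reads of the overlap cannot be told apart.

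With USP13 knockdown DGAT1 measured 60.4, 64.8 and 65.8 CPM in the control, 74.5, 75.3 and 70.3 under sh50 and 69.6, 69.8 and 73.5 under sh52. All 6 knockdown libraries lay above the controls. DGAT1 rose under sh50 (log2 change 0.19, SE 0.0664), a call that ended without sh50 replicate 1 (0.19) or 2 (0.18) and without USP13 control replicate 1 (0.16) or 2 (0.21). The sh52 value of 0.15 (SE 0.0667) did not pass. LPIN1, the phosphatidate phosphatase before the DGAT step, was the member that fell under both ZHX2 hairpins. It went from 75.5, 68.9 and 76.8 CPM in the ZHX2 control to 62.8, 61.8 and 63.8 under sh43 and 61.9, 61.3 and 63.2 under sh45. The knockdown ranges coincided and lay below the controls, with log2 changes of -0.26 (SE 0.0614) and -0.27 (SE 0.0613). Its USP13 levels were 134, 128 and 129 CPM in the control, 111, 121 and 122 under sh50 and 133, 122 and 132 under sh52 (log2 changes -0.15, SE 0.0587, and -0.03, SE 0.0586). The sh50 libraries lay below the controls, and that value passed only without sh52 replicate 1 (-0.15).

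CPT1A, the carnitine palmitoyltransferase that commits long-chain fatty acids to mitochondrial oxidation, rose under 3 of the 4 hairpins. It measured 13.4, 14.9 and 13.4 CPM in the USP13 control, 27.6, 26.3 and 21.3 under sh50 and 18.5, 25.4 and 21.0 under sh52. The log2 change was 0.83 (SE 0.125) under sh50 and 0.62 (SE 0.127) under sh52, with no overlap with the controls. In the ZHX2 experiment it measured 8.63, 8.79 and 7.69 CPM in the control, 17.2, 12.2 and 15.2 under sh43 and 7.06, 7.31 and 8.05 under sh45. It rose by 0.80 (SE 0.138) under sh43. The sh45 libraries overlapped the controls (log2 change -0.18, SE 0.150).

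**Figure D2:**
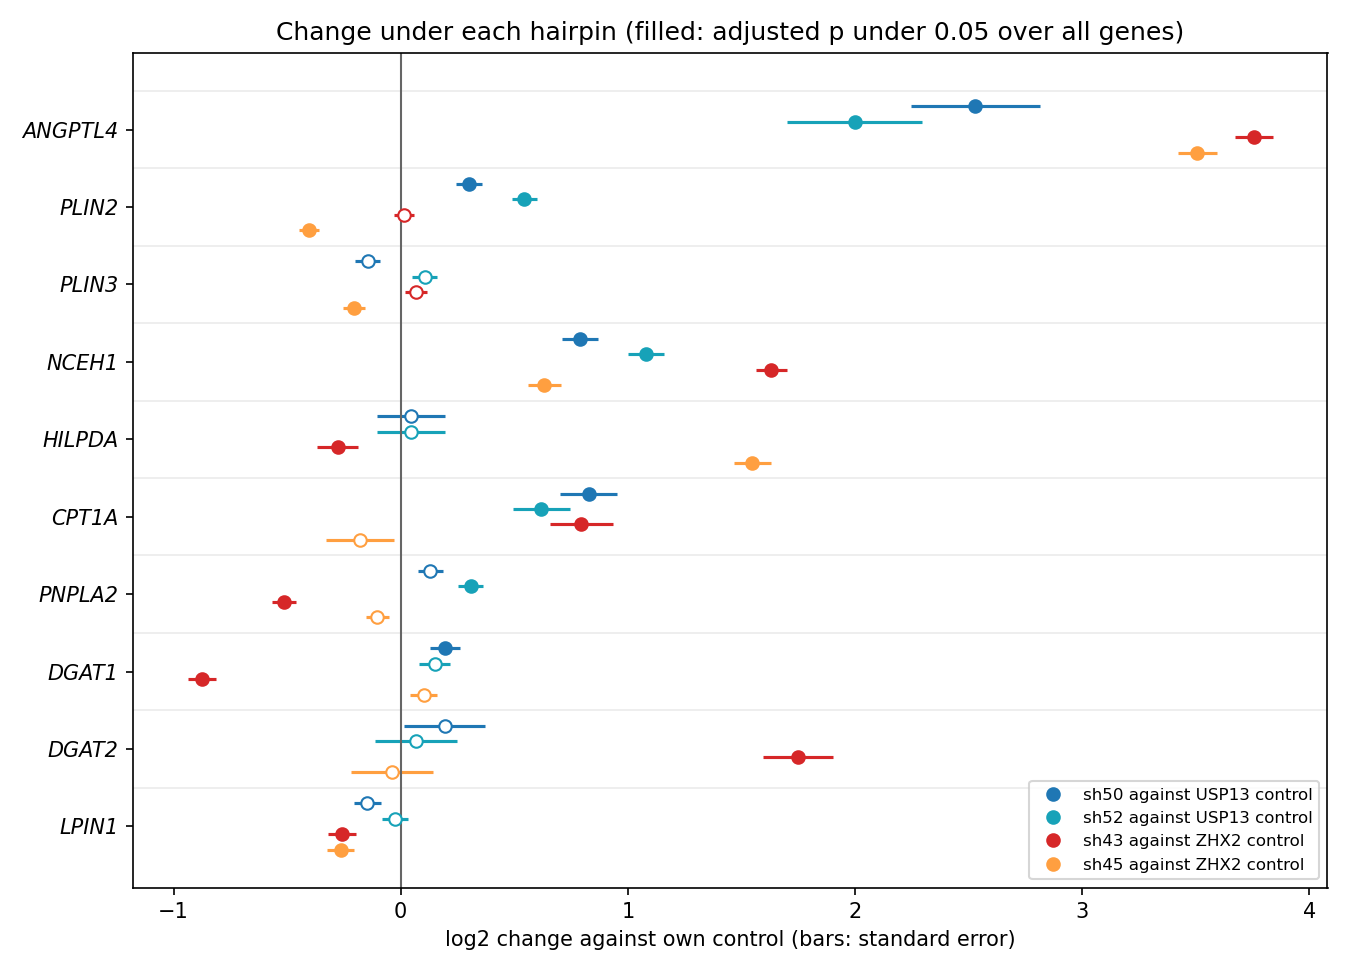
Log2 change of each gene under each hairpin against its own control, with the standard error as a bar; filled points have an adjusted p under 0.05 (edgeR, all genes of the experiment). ANGPTL4 lies to the right of all others for every hairpin, from 1.998 under sh52 to 3.76 under sh43. The sh43 and sh45 points lie furthest apart for HILPDA, DGAT2, NCEH1, DGAT1 and CPT1A.

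Under sh50, 5 of 10 members rose and none fell (edgeR; 2 were lower at an unadjusted p under 0.05, and DESeq2 called 1 lower). Of all 13715 genes tested there, 21.5% changed, 10.2% higher and 11.3% lower. Under sh52, 5 members rose and none fell (0 lower at an unadjusted p under 0.05 or by DESeq2), with a background of 12.0% changed (5.45% higher, 6.56% lower). ANGPTL4, PLIN2, NCEH1 and CPT1A rose under both USP13 hairpins, with a background of 7.42% called the same way under both (3.26% higher, 4.16% lower). Under sh43, 4 members rose and 4 fell, and of 13604 genes tested 68.8% changed (33.5% higher, 35.2% lower). Under sh45, 3 rose and 3 fell, with a background of 52.5% (25.3% higher, 27.3% lower). ANGPTL4 and NCEH1 rose and LPIN1 fell under both ZHX2 hairpins, with a background of 30.0% called the same way under both (14.1% higher, 15.9% lower). The members were chosen from these contrasts, so the counts describe them and test nothing. The hairpins of an experiment also share its 3 control libraries. The median log2 change of the 10 members was 0.19 under sh50, 0.23 under sh52, 0.04 under sh43 and -0.07 under sh45, where that of all genes was 0.00, 0.00, -0.02 and -0.01. Knockdown and control ranges were apart for 8 members under sh50 (38.1% of all genes), 7 under sh52 (27.7%), 9 under sh43 (70.5%) and 7 under sh45 (57.2%).

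The difference between hairpins of 1 target is the difference of contrasts that served to choose the members, so it too is a description, with the same threshold over all genes used only to count. Against sh50, sh52 held higher levels of PLIN3 (log2 difference 0.25, SE 0.0544), PLIN2 (0.24, SE 0.0556), NCEH1 (0.29, SE 0.0745) and PNPLA2 (0.18, SE 0.0550). These 4 of 10 members passed, where 10.2% of all genes did (5.48% higher under sh52, 4.74% lower). Their ranges did not overlap for 5 members, against 27.0% of all genes. USP13 itself did not differ beyond its spread (log2 difference -0.11, SE 0.114; edgeR, adjusted p = 0.61). The PNPLA2 call ended when sh50 replicate 1, 2 or 3, sh52 replicate 2 or 3 or USP13 control replicate 2 was left out (log2 differences 0.15 to 0.20). Without sh50 replicate 2 the PLIN2 difference was 0.19 and that of NCEH1 0.25, neither passed, and 1 member, PLIN3, remained. ANGPTL4 did not pass, with a log2 difference of -0.53 (SE 0.232) for sh52 minus sh50. Nor did HILPDA (-0.0009, SE 0.147), CPT1A (-0.21, SE 0.120), DGAT1 (-0.05, SE 0.0661), DGAT2 (-0.13, SE 0.179) and LPIN1 (0.12, SE 0.0588) pass.

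Between the hairpins against ZHX2, 9 of 10 members passed, where 66.8% of all genes did (34.2% higher under sh45, 32.7% lower). The ranges of 9 members did not overlap, against 70.3% of all genes. ZHX2 mRNA was itself higher under sh45 than under sh43 (log2 difference 1.06, SE 0.0626; edgeR, adjusted p = 5.6e-14). Lower under sh45 were DGAT2 (-1.79, SE 0.155), NCEH1 (-0.999, SE 0.0657), CPT1A (-0.97, SE 0.140), PLIN2 (-0.42, SE 0.0452), PLIN3 (-0.27, SE 0.0479) and ANGPTL4 (-0.25, SE 0.0658). Higher under sh45 were HILPDA (1.83, SE 0.0832), DGAT1 (0.98, SE 0.0613) and PNPLA2 (0.41, SE 0.0520). The 2 DGAT genes therefore went opposite ways between the hairpins, as did HILPDA and PLIN2, whereas the perilipins PLIN2 and PLIN3 were both lower under sh45. LPIN1 had a log2 difference of -0.01 (SE 0.0621) and did not pass.

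Each response can also be set beside the other, every one against its own control. For the mean of both hairpins, USP13 knockdown minus ZHX2 knockdown gave log2 differences of -1.39 for ANGPTL4, -0.74 for DGAT2 and -0.60 for HILPDA, whose mean changes were more positive with ZHX2 knockdown. For HILPDA and DGAT2 that mean joins hairpins that differed. The HILPDA change under sh43 (-0.28) lay below those under sh50 (0.05) and sh52 (0.04), and the DGAT2 change under sh45 (-0.04) lay below those under sh50 (0.19) and sh52 (0.07). The differences were 0.60 for PLIN2, 0.55 for DGAT1 and 0.51 for PNPLA2, whose mean changes were more positive with USP13 knockdown. Their ZHX2 means too join hairpins that differed. The changes under sh43 and sh45 were -0.88 and 0.10 for DGAT1, -0.51 and -0.10 for PNPLA2, and 0.01 and -0.40 for PLIN2. The differences in response of CPT1A (0.40), LPIN1 (0.16), NCEH1 (-0.21) and PLIN3 (0.04) did not pass. Of 14207 genes 43.4% passed (22.7% higher, 20.7% lower), and of the members 3 passed in each direction. The differences in response of ANGPTL4, DGAT2, HILPDA, PLIN2, DGAT1 and PNPLA2 passed. The choice of members used these contrasts, so these differences too are a description.

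Control levels differed between the experiments before any knockdown. The ANGPTL4 level of the ZHX2 control (11.9 ± 0.378 CPM) was 14.2 times that of the USP13 control (0.842 ± 0.144 CPM; SD, n = 3). PLIN2, HILPDA, PLIN3 and DGAT1 were also higher there, with ratios of 2.41, 2.35, 1.28 and 1.27. LPIN1, CPT1A and PNPLA2 were higher in the USP13 control, with ratios of 1.77, 1.66 and 1.11. The ranges of these 8 members did not overlap between the controls, and those of NCEH1 and DGAT2 did. The share of all genes with ranges apart between the controls was not taken, so the count does not set the members apart from other genes. The experiment and everything that was done separately for it cannot be told apart in these levels. The ANGPTL4 level under USP13 knockdown (4.96 ± 0.708 CPM under sh50) stayed below that of the ZHX2 control libraries.

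Per transcript length, the order of the members was led by PLIN2 in all 6 groups, from 167 ± 10.1 TPM (transcripts scaled to a sum of 1000000, a measure per length) in the USP13 control to 399.9 ± 7.06 TPM in the ZHX2 control. PNPLA2 and PLIN3 held the next places in the control groups, between 139.6 and 186 TPM. ANGPTL4 was the last of the 10 in the USP13 control, at 1.08 ± 0.319 TPM, and the eighth in the ZHX2 control, at 14.5 ± 0.615 TPM. Under sh43 and sh45 it was the second, at 187 ± 18.8 and 140.4 ± 9.61 TPM, close to PLIN3 at 184 ± 0.777 and 139 ± 6.22 TPM. CPT1A and DGAT2 were among the last 3 in every group. In TPM the PLIN2 mean was lower under sh43 than in its control, the reverse of the order in CPM, where the ranges overlapped.

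The transcript with most of the counts was the same in every group for ANGPTL4, PLIN2, CPT1A, HILPDA and DGAT2. For ANGPTL4, the coding transcript NM_139314 (1905 bases) took 53.0% to 62.0% of the gene's counts as a group mean, NM_001039667 (1791 bases) 28.3% to 39.3%, and the noncoding NR_104213 (807 bases) 4.39% to 9.71%. For PLIN2, NM_001122 (2011 bases) took 54.6% to 58.3% and the noncoding NR_038064 (2098 bases) the rest. CPT1A counts lay mostly on the long transcript NM_001876 (5253 bases), with 78.8% to 85.4%. These shares are Salmon's estimates, since transcripts of a gene share sequence.

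Other genes of lipid handling, taken from lists written with earlier results of these data known and not holding the members, were set beside them. Over all genes tested, 3.26% were called higher and 4.16% lower under both USP13 hairpins, and 14.1% higher and 15.9% lower under both ZHX2 hairpins, so counts of the experiments are not compared with each other. In the lipoprotein lipase system, no gene of 9 tested was called under both USP13 hairpins, and 2 of 9 rose and 4 fell under both ZHX2 hairpins (background 14.1% and 15.9%). At an unadjusted p under 0.05, 1 was higher and 2 were lower under both USP13 hairpins, and DESeq2 called 1 lower. LPL itself, the enzyme that ANGPTL4 inactivates, had no count in any library. LIPG, endothelial lipase, rose under sh43 (1.14; edgeR, adjusted p = 0.00097) and sh45 (0.84; edgeR, adjusted p = 0.019), with at most 3.70 CPM as a group mean. Its sh45 call ended without sh45 replicate 2 or ZHX2 control replicate 3 (edgeR, adjusted p 0.0836 to 0.101). The receptors VLDLR (-0.48; edgeR, adjusted p = 1.8e-07 under sh43, and -0.71; edgeR, adjusted p = 4.9e-10 under sh45) and SORT1 (-0.76; edgeR, adjusted p = 4.1e-09 under sh43, and -0.58; edgeR, adjusted p = 7e-07 under sh45) fell, as did LIPC, hepatic lipase (-2.57; edgeR, adjusted p = 8.2e-07 under sh43, and -1.05; edgeR, adjusted p = 0.0052 under sh45). LMF2 rose and LMF1, a lipase maturation factor, fell under both, and the LMF1 call under sh45 (log2 change -0.26) ended under 6 alternatives (edgeR or DESeq2, adjusted p 0.0503 to 0.111), among them the fits without sh45 replicate 1 or 2 and without ZHX2 control replicate 1 or 3. The LIPC call under sh45 ended without ZHX2 control replicate 2 (edgeR, adjusted p = 0.0547).

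Among 15 other coat, assembly and contact genes, 2 fell under both USP13 hairpins (background 4.16%) and none rose (0 higher at an unadjusted p under 0.05 or by DESeq2). LDAF1, which works with seipin where droplets form, fell under sh50 (-0.54; edgeR, adjusted p = 0.0014) and sh52 (-0.58; edgeR, adjusted p = 0.0014). LSS, lanosterol synthase, an enzyme of sterol synthesis that is also found on droplets, fell under sh50 (-0.43; edgeR, adjusted p = 1.9e-05) and sh52 (-0.36; edgeR, adjusted p = 0.00028). It fell too under sh43 (-0.42; edgeR, adjusted p = 2.3e-07) and sh45 (-1.21; edgeR, adjusted p = 1.3e-15). Of the 14 genes of that list tested with ZHX2 knockdown, AUP1, a droplet protein of lipid and ubiquitin handling, rose under sh43 (0.74; edgeR, adjusted p = 7.7e-13) and sh45 (0.34; edgeR, adjusted p = 3.5e-06), and LSS and RAB18 fell under both. The RAB18 call under sh43 (log2 change -0.15) ended under 9 alternatives (edgeR or DESeq2, adjusted p 0.051 to 0.129), 5 of which left out 1 library (sh43 replicate 2, sh43 replicate 3, sh45 replicate 3, ZHX2 control replicate 2, ZHX2 control replicate 3). The median log2 change of the list was -0.08 for the mean of the USP13 hairpins and -0.17 for that of the ZHX2 hairpins, where all genes had 0.00 and -0.02.

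In the lipase list, 1 of 14 genes rose and 2 fell under both ZHX2 hairpins, near or below the background of 14.1% and 15.9%. G0S2, a protein that binds and inhibits ATGL, measured 8.79, 9.53 and 9.09 CPM in the ZHX2 control, 65.1, 55.6 and 67.0 under sh43 and 44.6, 44.3 and 47.4 under sh45. G0S2 rose under sh43 (2.74; edgeR, adjusted p = 2.2e-19) and sh45 (2.30; edgeR, adjusted p = 3.9e-17). In the USP13 experiment it held 4 to 23 counts per library and did not pass the filter. The genes that fell were CES2, a carboxylesterase (log2 changes -0.56 under sh43 and -0.57 under sh45), and UBXN4 (-0.42 and -0.21). With USP13 knockdown 1 of 12 genes was called under both hairpins (background 7.42%). It was PNPLA3, an acyl hydrolase and transacylase of droplets, which fell under sh52 (-1.14; edgeR, adjusted p = 0.00048) and, at the threshold, under sh50 (log2 change -0.54). The sh50 call of PNPLA3 ended under 10 alternatives (edgeR or DESeq2, adjusted p 0.0506 to 0.201), 6 of which left out 1 library: sh50 replicate 1, sh50 replicate 3, sh52 replicate 3 or any USP13 control.

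In the synthesis list, ACSL1, the acyl-CoA synthetase that activates fatty acids, rose under sh50 (0.32; edgeR, adjusted p = 0.00068), sh52 (0.31; edgeR, adjusted p = 0.0019) and sh43 (0.49; edgeR, adjusted p = 7.2e-08) and fell under sh45 (-0.48; edgeR, adjusted p = 5.8e-07). LPIN3, a second lipin, also rose under both USP13 hairpins, and AGPAT3 fell under both, so that 2 of 18 genes rose (background 3.26%) and 1 fell (4.16%). The LPIN3 and AGPAT3 calls ended without USP13 control replicate 1 (edgeR, adjusted p 0.0716 to 0.0825), and under sh50 both also ended without sh50 replicate 1 (edgeR, adjusted p 0.0544 to 0.0822) and that of AGPAT3 without sh50 replicate 2 (edgeR, adjusted p = 0.0595). Under sh43 alone 11 of 17 genes rose (background 33.5%) and 4 fell (35.2%). Under sh45 3 rose and 5 fell, near or below the background of 25.3% and 27.3%. GPAT3, an acyltransferase of the first step, rose under sh43 (1.35; edgeR, adjusted p = 2.3e-13) and sh45 (0.29; edgeR, adjusted p = 0.012). AGPAT4, an acyltransferase of the next step, rose under sh43 (0.48; edgeR, adjusted p = 4.5e-07) and sh45 (0.50; edgeR, adjusted p = 5.2e-07), as did CTDNEP1, the phosphatase that acts on lipins (0.45; edgeR, adjusted p = 2e-07 under sh43, and 0.24; edgeR, adjusted p = 0.0015 under sh45). ACSL3, an acyl-CoA synthetase of nascent droplets, fell under sh43 (-0.18; edgeR, adjusted p = 0.0076) and sh45 (-0.59; edgeR, adjusted p = 3.5e-09), and its sh43 call ended without sh43 replicate 1 (edgeR, adjusted p = 0.0789). The sh45 call of GPAT3 ended without sh45 replicate 2 (edgeR, adjusted p = 0.0594).

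In the oxidation list 9 of 19 genes fell and none rose under both ZHX2 hairpins (background 15.9% lower; 0 higher at an unadjusted p under 0.05 or by DESeq2), with a median log2 change of -0.35, where that of all genes was -0.02. The other 10 were not called the same way under both, and ECI2 rose under sh43 and CPT1B under sh45. CPT2, the partner of CPT1A on the inner membrane, fell under sh43 (-1.02; edgeR, adjusted p = 9.2e-11) and sh45 (-0.45; edgeR, adjusted p = 7e-05). DECR1, which handles unsaturated chains, fell under sh43 (-1.03; edgeR, adjusted p = 5.8e-13) and sh45 (-0.50; edgeR, adjusted p = 6.3e-07), and ACAA2, the thiolase of the last step, fell under sh43 (-0.71; edgeR, adjusted p = 2.2e-08) and sh45 (-0.68; edgeR, adjusted p = 9.5e-08). ACADS, the short-chain dehydrogenase, and SLC22A5, the carnitine importer, also fell under both ZHX2 hairpins, by 0.73 and 0.65 on the log2 scale under sh43. With USP13 knockdown 1 of the 19 was called under both hairpins (background 7.42%). ACADVL, the very-long-chain acyl-CoA dehydrogenase, rose under sh50 (0.32; edgeR, adjusted p = 0.00015) and sh52 (0.28; edgeR, adjusted p = 0.0013) and fell under sh43 (-0.83; edgeR, adjusted p = 3.1e-14).

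**Figure D3:**
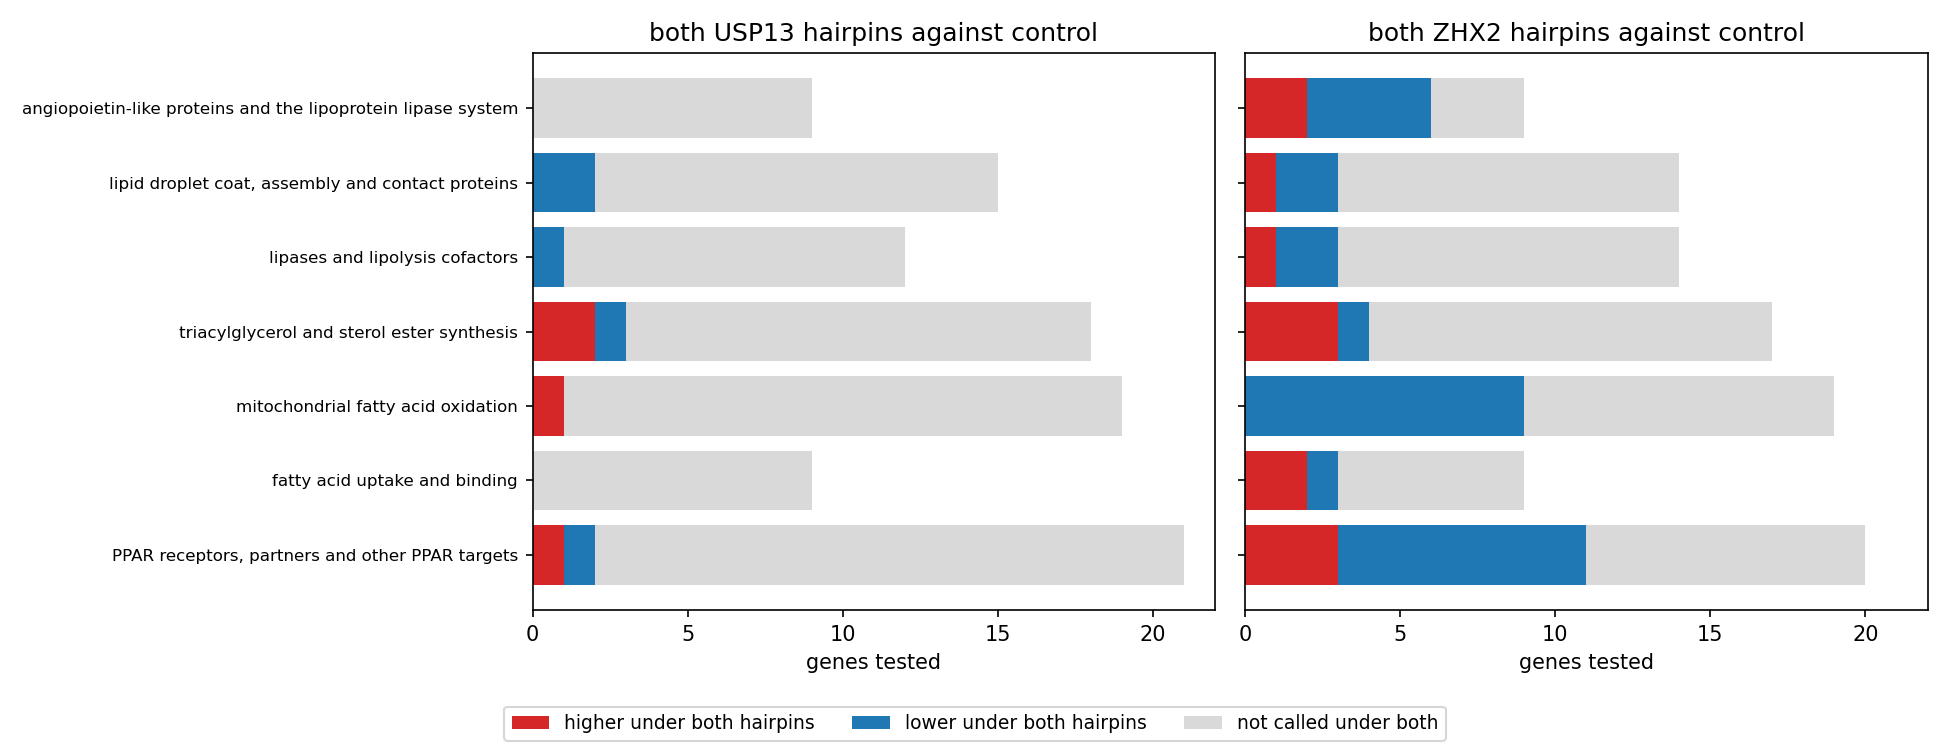
Genes of 7 lists of lipid handling, without the 10 members, that were called higher (red) or lower (blue) under both hairpins of a target, or not so called (grey), as counts of the genes tested. The oxidation list shows 9 lower under ZHX2 knockdown and 1 higher under USP13 knockdown.

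Receptors that act on ANGPTL4, PLIN2 and CPT1A in textbook accounts did not move as 1 group. PPARG rose under sh43 (0.94; edgeR, adjusted p = 1.1e-08) and sh45 (0.61; edgeR, adjusted p = 3.2e-05) and fell under sh52 (-0.39; edgeR, adjusted p = 0.033), a call that ended with DESeq2 and without sh52 replicate 1 or 3 or USP13 control replicate 1 or 2 (edgeR or DESeq2, adjusted p 0.0512 to 0.122). PPARD fell under sh43 (-0.38; edgeR, adjusted p = 0.00011) and sh45 (-0.60; edgeR, adjusted p = 3.9e-07), and PPARA fell under sh50 (-0.42; edgeR, adjusted p = 0.00028). The gene of the HIF-2 alpha subunit, EPAS1, rose under sh43 (0.76; edgeR, adjusted p = 1.1e-13) and sh45 (0.40; edgeR, adjusted p = 6.8e-08), and it fell under sh50 (-0.45; edgeR, adjusted p = 5.8e-05). Of 21 PPAR receptors, partners and other targets, 1 (PPARGC1A) rose and 1 (RXRA, the partner of PPAR receptors on DNA) fell under both USP13 hairpins (background 3.26% and 4.16%). The RXRA call under sh52 (-0.20; edgeR, adjusted p = 0.017) ended without sh52 replicate 1 or USP13 control replicate 1 (edgeR, adjusted p 0.0688 to 0.071). Of 20 tested with ZHX2 knockdown 3 rose under both, at the background of 14.1%, and 8 fell (background 15.9%). UCP2, a mitochondrial carrier, fell under sh43 (-1.88; edgeR, adjusted p = 3.6e-18) and sh45 (-1.87; edgeR, adjusted p = 8.2e-18), and EHHADH, a peroxisomal oxidation enzyme, fell under sh43 (-1.38; edgeR, adjusted p = 3.5e-14) and sh45 (-1.15; edgeR, adjusted p = 2.8e-12). TSC22D1 and TXNIP fell under both too, with log2 changes of -1.51 and -1.05 under sh43 and of -0.23 and -0.59 under sh45. PPARGC1A, the coactivator of mitochondrial biogenesis, rose under sh50 (0.41; edgeR, adjusted p = 0.00032) and sh52 (0.48; edgeR, adjusted p = 0.00011) and fell under sh43 (-0.54; edgeR, adjusted p = 0.0019) and sh45 (-1.85; edgeR, adjusted p = 4.6e-10).

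Genes whose pattern was most like that of ANGPTL4 were sought by the Euclidean distance over the log2 changes under the 4 hairpins, among 13182 genes tested in both experiments. The nearest were HMGA1 at 2.36, GPR3 at 2.57, PINLYP at 2.57, PRSS8 at 3.10 and ACTN2 at 3.33. The nearest pattern thus differed from that of ANGPTL4 by more than 1 doubling under sh50. HMGA1, a chromatin architectural protein, had log2 changes of 0.88, 0.60, 4.70 and 3.44 under sh50, sh52, sh43 and sh45 (the sh50 call ended under 5 alternatives, 4 of which left out 1 library: sh50 replicate 1, sh50 replicate 2, USP13 control replicate 2, USP13 control replicate 3), where ANGPTL4 had 2.53, 1.998, 3.76 and 3.51. GPR3, PINLYP, PRSS8 and ACTN2 had group means of at most 3.67 CPM, and their log2 changes carry standard errors of up to 0.695.

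**Figure D4:**
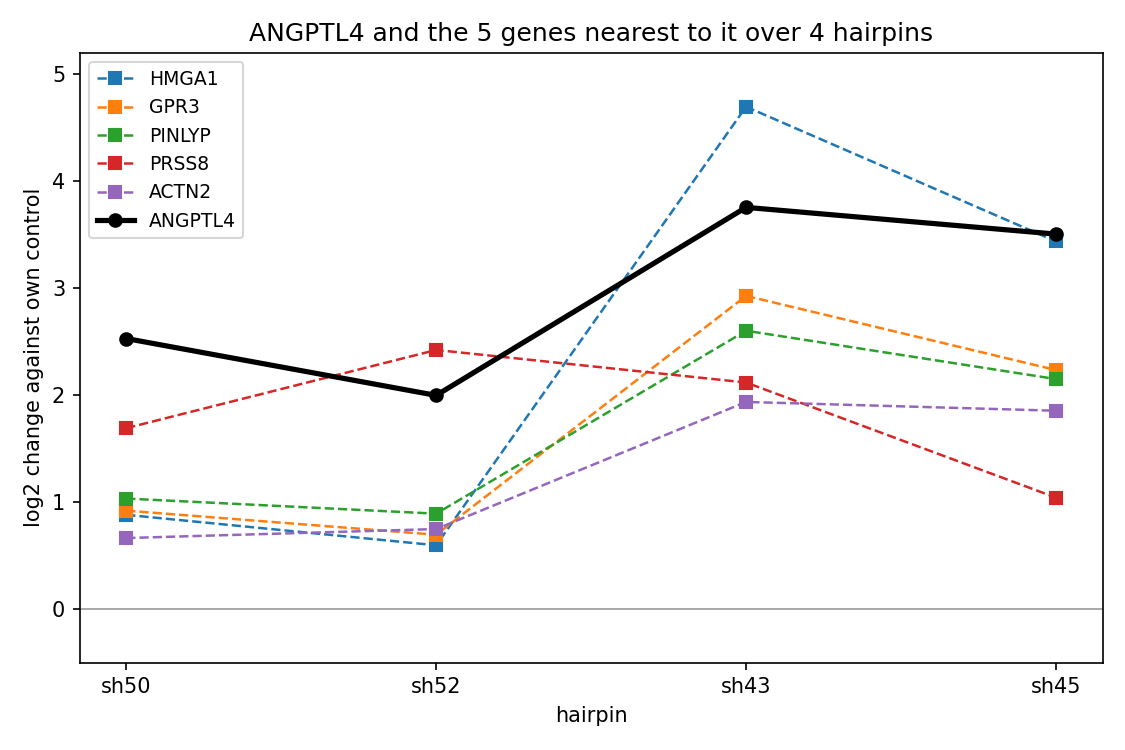
Log2 change of ANGPTL4 (black) and of the 5 genes nearest to it (dashed) under each hairpin against its own control. HMGA1 lies at 4.70 and 3.44 under sh43 and sh45, and at 0.88 where ANGPTL4 lies at 2.53 under sh50.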

How the data were processed

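Transcripts of 18 libraries (TruSeq RNA kit v2, unstranded, paired reads of 150 bases) were quantified by the authors. Per the submitters' processing notes the tools were cutadapt 1.12, STAR 2.5.2b, Salmon 0.11.3 and DESeq2 1.14.1, with build hg19. The deposited files give, per the file headers, an estimated count and TPM (scaled to 1000000 per library) for each of 60422 RefSeq transcripts, as Salmon writes them.

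Here the estimated counts, all whole within 1e-06, were summed to genes by the RefSeq table (59301 transcripts) or GENCODE 29 (684). The 437 without a name (0.0854% to 0.1204% of counts) were left out, which gave 27086 genes. Genes with enough counts for edgeR's filterByExpr (13715, 13604 and 14207 for the USP13 experiment, the ZHX2 experiment and all libraries) were fitted with edgeR 4.0.16 (R 4.3.3; TMM, quasi-likelihood test, Benjamini-Hochberg adjustment over all genes tested, threshold 0.05), 1 fit per experiment. A gene is called under both hairpins when it passed under each in the same direction. Replicate pairs differed beyond sampling noise (chi-square per degree of freedom 2.33 to 6.68 over 18 pairs). Alternatives were DESeq2 1.42.0, other scalings, no filter, length offsets, the compared groups alone, a replicate block and each library left out. TPM serves only for levels between genes.

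The members and gene lists were chosen with earlier results of these data known. The naming rule took all members, both targets, PPARA, PPARD, PPARG, EPAS1 and LPL, from each list and experiment up to 5 genes with the largest mean log2 change among those called under both hairpins, and the 5 genes nearest to ANGPTL4. LMF2, HSF1, RAB11B-AS1, ECI2, CPT1B and the cell type markers were named after their values were seen.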

Additional observations from a re-analysis of the deposited data

Results flagged for a closer look

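The hairpins of 1 target differed past the threshold over all genes (edgeR, adjusted p under 0.05) for 13 gene and target combinations. The members were chosen from the contrasts of which these values are differences, so the values describe them and test nothing. For USP13, sh52 minus sh50 on the log2 scale was 0.24 for PLIN2, 0.25 for PLIN3, 0.29 for NCEH1 and 0.18 for PNPLA2, each higher under sh52, where 10.2% of all genes differed.

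For ZHX2, sh45 minus sh43 was -0.25 for ANGPTL4, -0.42 for PLIN2, -0.27 for PLIN3, -0.999 for NCEH1, -0.97 for CPT1A and -1.79 for DGAT2, which were lower under sh45. It was 1.83 for HILPDA, 0.41 for PNPLA2 and 0.98 for DGAT1, which were higher there. Between these hairpins 66.8% of all genes differed.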

How the results depend on the processing

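No member's called change reversed under any alternative. Leaving out 1 library moved counts of genes called by over 1.5 times in 3 comparisons: from 1648 to between 991 and 1661 for sh52 against control (1023 without USP13 control replicate 1, 991 without replicate 2), from 1017 to between 610 and 1024 for both USP13 hairpins (610 and 617 without those controls), and from 1401 to between 685 and 1513 for sh52 against sh50 (839 without sh50 replicate 1, 685 without replicate 2). For sh52 against sh50 the 4 members called ranged from 1 (without sh50 replicate 2) to 4. The cause was not tested. Members called ranged from 4 to 7 under sh50 and stayed at 5 under sh52, and ranged from 7 to 8 under sh43 and 6 to 7 under sh45. For the difference in response, CPT1A passed under 6 alternatives, and NCEH1 and LPIN1 under 4 each.

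Same-numbered libraries did not deviate together (r from -0.09 to 0.06 over 9 pairs in the USP13 experiment and from -0.04 to 0.03 over 9 in the ZHX2 experiment). The fit with a replicate block called 2698 genes under sh50, 1455 under sh52, 896 under both, 1182 for sh52 against sh50, 9234 under sh43, 6976 under sh45, 3981 under both, 8970 for sh45 against sh43 and 5936 for the difference in response. Members called were then 4, 5, 4, 3, 8, 6, 3, 9 and 6. The calls that ended with the block were DGAT1 under sh50 and PNPLA2 for sh52 against sh50.

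Depth limits ANGPTL4 in the USP13 control (9 to 14 counts per library) and G0S2 in that experiment. Without strand, reads of overlapping genes are not separated, and transcript shares are estimates. In TPM the highest-to-lowest ratio over groups moved for PLIN2, PLIN3, NCEH1, HILPDA, PNPLA2, DGAT2 and LPIN1. A move was counted when it exceeded the SD of the highest group divided by the lowest group mean. The spread of the lowest group was left out of that measure.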

Other observations

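Fatty acid uptake and binding genes were a further list, with 9 genes tested in each experiment. Under both ZHX2 hairpins 2 rose and 1 fell (background 14.1% and 15.9%), and under both USP13 hairpins none was called by edgeR, by DESeq2 or at an unadjusted p under 0.05. FABP5, a cytosolic fatty acid carrier, rose under sh43 (1.56; edgeR, adjusted p = 3e-16) and sh45 (0.58; edgeR, adjusted p = 3.4e-07). SCARB1, the HDL receptor that takes up cholesteryl esters, rose under sh43 (0.38; edgeR, adjusted p = 2e-08) and sh45 (0.53; edgeR, adjusted p = 7.3e-11). CAV1, the coat protein of caveolae, fell under sh43 (-0.39; edgeR, adjusted p = 2.9e-09) and sh45 (-0.36; edgeR, adjusted p = 2.6e-08).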
